A study of Homo sapiens with 2 samples.

Results

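The zinc finger genes with a ZNF number that lie on chromosome 19 were described in MDA-MB-231 cells, an established human line of triple-negative breast cancer with mesenchymal features. A gene was taken when its symbol was ZNF followed by digits, with or without a final letter, when GENCODE placed it on chromosome 19, and when it reached 1 FPKM in at least 1 library. FPKM counts a transcript's fragments relative to its length in kilobases and to the depth of the library, so it is a level per length, and it was summed over the listed transcripts of each gene. Of 261 such genes annotated on the chromosome, 231 were listed and 195 reached the minimum, out of 12918 genes listed and 11046 reaching it in all. The members were thus chosen by their FPKM in these same libraries, so their levels and their number are a description.

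The series held 2 libraries of total RNA, 1 per group, from cells grown in L15 medium with 10% FBS. One group received the Smart Silencer for THAP7-AS1, a noncoding RNA named for its position antisense to THAP7, and the other received the control si-NC by transfection. RNA was taken at 48 h. The column named si-nc was taken as the control, and the column named si-v was taken as the silencer library by elimination, since the meaning of v is not stated. It is called the si-v library here, and every direction below depends on that assignment. THAP7-AS1 was not among the listed transcripts, so its level could not check the labels, and THAP7 stood at 1.501 and 1.601 FPKM in the control and si-v libraries. With 1 library per group there is no spread between cultures, so no test of a difference between the conditions was possible and none is given.

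Most zinc finger proteins of this chromosome carry a KRAB domain followed by a long array of C2H2 zinc fingers. The fingers read DNA, often within transposable elements, and the KRAB domain recruits TRIM28, also called KAP1. TRIM28 in turn brings in the histone H3 lysine methyltransferase SETDB1 and HP1 proteins, which together form repressive chromatin. The genes arose by tandem duplication and stand in clusters along the chromosome, so that neighbours are often near copies of each other. Some members bind the zinc finger clusters themselves, where they help to lay down repressive chromatin over the finger-coding exons.

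In short, these genes were expressed at a low level in both libraries, and the family as a whole differed little between them. The median log2 ratio of the 195 genes was 0.09, against 0.00 over all 11046 genes. ZNF808, ZNF266, ZNF383, ZNF17 and ZNF841 were 2-fold or more higher in the si-v library, and ZNF211 and ZNF418 were 2-fold or more lower. Of these 7, only ZNF266 and ZNF841 reached 1 FPKM in both libraries. Neighbouring genes did not share a direction more often than not. Within genes, 59 of the 160 members with several listed transcripts had a different leading transcript in the si-v library, or 36.9%, against 33.8% of genes at like levels.

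The repeated unit that defines the family is a stretch of 84 bases, coding for 1 finger and the linker to the next. Near copies often differ in such units by only a few bases, which limits how far short reads can be assigned to one gene. The units below are shown for that reason. They were read from GENCODE transcripts on GRCh38, lie within the last exon, and are written from 5′ to 3′ on the coding strand, with the bases that differ between the members of a pair in capitals. The positions are chr19:57909387-57909470 on the minus strand for ZNF417, chr19:57859220-57859303 on the plus strand for ZNF587, chr19:37152918-37153001 on the minus strand for ZNF585A, chr19:37186556-37186639 on the minus strand for ZNF585B, chr19:58471351-58471434 on the plus strand for ZNF324 and chr19:58455803-58455886 on the plus strand for ZNF324B.
ZNF417: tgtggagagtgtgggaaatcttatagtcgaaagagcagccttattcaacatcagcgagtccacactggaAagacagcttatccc
ZNF587: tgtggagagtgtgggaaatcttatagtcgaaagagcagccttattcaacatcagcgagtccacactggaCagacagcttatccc
ZNF585A: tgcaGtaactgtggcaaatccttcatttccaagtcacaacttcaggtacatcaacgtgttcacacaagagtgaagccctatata
ZNF585B: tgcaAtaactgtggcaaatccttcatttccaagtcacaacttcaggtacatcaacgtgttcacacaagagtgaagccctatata
ZNF324: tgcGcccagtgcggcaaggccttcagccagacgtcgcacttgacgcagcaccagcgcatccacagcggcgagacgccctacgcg
ZNF324B: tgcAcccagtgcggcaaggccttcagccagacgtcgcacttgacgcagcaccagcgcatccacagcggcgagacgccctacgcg

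Of the 10 units of this length in ZNF417, 3 were identical to a unit of ZNF587. In the ZNF585A and ZNF585B pair 8 of 20 units were identical, and in the ZNF324 and ZNF324B pair 3 of 9 were. The units shown differ at 1 base within each pair, but not all units were so close. In the order of the pairs, the median number of differing bases per unit was 1, 1.5 and 1. The most were 3, 9 and 13. Over all members, the median share of a gene's runs of 50 bases that also occur in another gene was 2.41%. Such runs made up 10% or more of 46 members and 50% or more of 8 members, while 39 members had none. For ZNF320, 96.6% of runs were shared, mainly with ZNF468, whose locus overlaps it.

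Nearly all members code for long finger arrays. A complete coding sequence was found for 194 members, and the exception was ZNF788P, an annotated pseudogene. Translated, these had a median of 12 finger matches and a median length of 581 residues. ZNF91 held the most, with 32 fingers in 1191 residues, and 142 members held 10 or more. A stretch like the KRAB A box was found in 155 members and not in 39. The members comprised 568 listed transcripts, from 1 transcript in 35 members to 10 in ZNF544.

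The levels were low. The median was 3.02 FPKM in the control and 3.24 FPKM in the si-v library, against 9.44 and 9.29 FPKM over all genes. In 43 members the higher of both values stayed under 2 FPKM, and in 129 under 5 FPKM, while 19 reached 10 FPKM and 3 reached 20 FPKM. Summed, the members stood at 804 and 873 FPKM, which was 0.267% and 0.293% of all FPKM in the table. ZNF genes of other chromosomes, 199 of which reached the minimum, had medians of 3.65 FPKM in both libraries.

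ZNF114 had the highest level of any member, 35.0 FPKM in the control and 38.3 FPKM in the si-v library. It is a short member with 3 finger matches and a KRAB-like stretch. ZNF428 followed with 21.03 and 33.6 FPKM, and its single finger match sets it apart from the long arrays. ZNF580, with 3 finger matches, stood at 22.9 and 23.1 FPKM, and ZNF358 at 16.5 and 19.8 FPKM. Among the 8 highest by mean level were also ZNF787 with 11.4 and 16.4 FPKM, ZNF121 with 13.4 and 11.6 FPKM, ZNF528 with 9.26 and 14.0 FPKM, and ZNF146 with 11.1 and 10.7 FPKM. Only ZNF114 and ZNF528 among these 8 had a KRAB-like stretch, against 155 of 195 members overall.

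**Figure D1:**
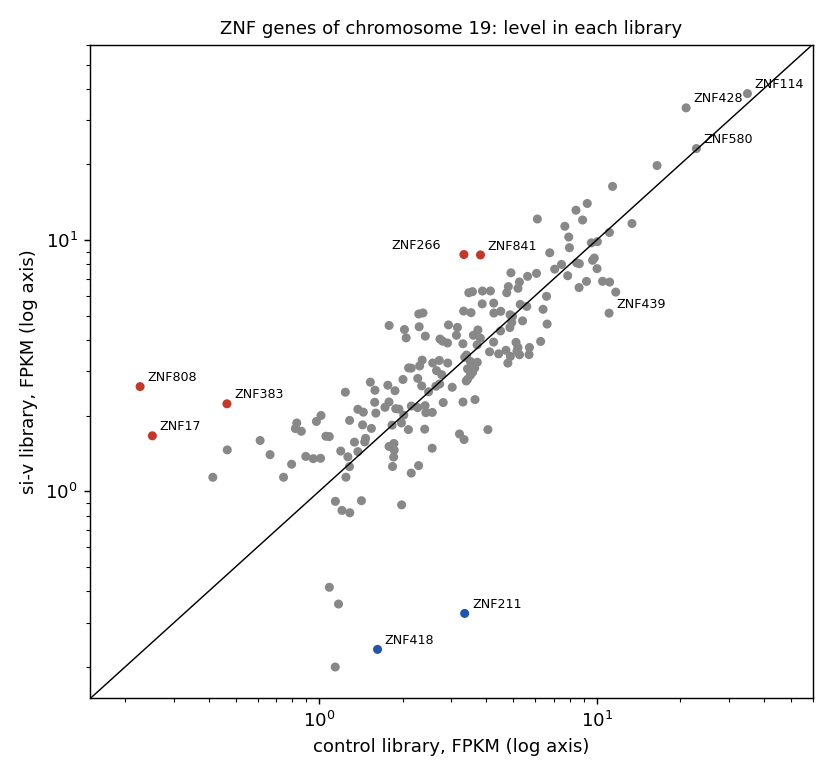
Level of each of the 195 members in the control library (x) and the si-v library (y), in FPKM on log axes, 1 point per gene, with the line of equal levels. Red points are the 5 members that were 2-fold or more higher in the si-v library on the scale with 1 FPKM added, and blue points the 2 that were 2-fold or more lower; most points lie near the line.

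The minimum excluded 36 listed genes, of which 8 were listed at 0 in both libraries. Just inside it stood ZNF878 with 1.09 and 0.415 FPKM, ZNF573 with 0.414 and 1.14 FPKM, and ZNF613 with 0.745 and 1.14 FPKM in the control and si-v libraries. Just outside stood ZNF404 with 0.762 and 0.984 FPKM, ZNF599 with 0.977 and 0.721 FPKM, and ZNF345 with 0.737 and 0.961 FPKM. The minimum was reached in both libraries by 170 members, in the control alone by 10 and in the si-v library alone by 15. The last 25 passed through 1 library only, so their difference follows from the rule.

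Ratios are given as log2 of the si-v value plus 1 over the control value plus 1, a scale that understates differences of low genes. On it 113 of the 195 members (57.9%) were higher in the si-v library, with quartiles of -0.19 and 0.37 and an SD over genes of 0.45. Over all genes 50.4% were higher, and over ZNF genes of other chromosomes 56.8%. The 170 members that reached the minimum in both libraries had a median of 0.06. Of the members 5, or 2.56%, were 2-fold or more higher, beside a background of 2.37% over all genes, and 3 of these 5 passed the minimum through the si-v library alone. ZNF211 and ZNF418, 1.03% of the members, were 2-fold or more lower, beside a background of 2.49%, and both passed the minimum through the control alone. At 1.5-fold 23 members were higher, or 11.8% against a background of 9.82%, and 11 were lower, or 5.64% against a background of 8.91%. The other 161 members lay within 1.5-fold. Of the 23 higher members, 8 passed the minimum through the si-v library alone. Of the 11 lower members, 5 passed it through the control alone, so the direction of these follows from the rule. How the shares at 2-fold stand to the background depends on the scale. With 0.1 FPKM added in place of 1, 7.18% of members were higher and 4.62% lower, beside 4.40% and 4.28% of all genes, and no test of these differences was made.

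Depth limits the single ratios. The listed transcripts held approximately 7830000 control and 8320000 si-v fragments, and the median member had about 92.9 and 108 of them. Beside log2 ratios, intervals are given at 95% by the exact Clopper-Pearson method from the approximate fragments, with nothing added, so they can lie outside the ratio of summed FPKM. They cover counting error only, and not the spread between cultures. The interval included 0 in 99 of the 195 members. Intervals were made for members only, so no share over all genes stands beside this count. It is therefore not a result about the family.

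ZNF808, whose loss causes pancreatic agenesis in humans and which binds a class of retroviral repeats, had the highest ratio. It stood at 0.226 FPKM in the control and 2.61 FPKM in the si-v library, a log2 ratio of 1.56, on about 2 and 64 fragments (interval 2.97 to 7.96), and passed the minimum in the si-v library alone. In the control 94.4% of its level came from a transcript of 553 bases, and in the si-v library 49.4% came from one of 3600 bases. Its locus overlaps that of ZNF701, which stood at 4.98 and 4.97 FPKM. Runs shared with ZNF701 made up 16.8% of the runs of ZNF808, and summed over both genes the log2 ratio was 0.47.

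ZNF266 stood at 3.33 and 8.76 FPKM, a log2 ratio of 1.17, on about 74 and 267 fragments (interval 1.36 to 2.13). Its most abundant transcript, an annotated retained intron of 760 bases, stood at 1.68 and 2.53 FPKM. The coding transcript of 3100 bases stood at 0.305 and 2.28 FPKM, and those of 3317 and 3509 bases were higher too. No run of ZNF266 was shared with another gene. By its most abundant transcript alone, here and below the one with the highest mean FPKM of both libraries, the ratio of ZNF266 was 0.40.

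ZNF841 and ZNF616 lie next to each other and were both higher. ZNF841 stood at 3.82 and 8.73 FPKM, a log2 ratio of 1.01, on about 98 and 324 fragments (interval 1.28 to 1.95). ZNF616 stood at 1.79 and 4.57 FPKM, a log2 ratio of 0.999, on about 38 and 123 fragments (interval 1.04 to 2.14). The next member, ZNF836, was on the other side, with 3.33 and 1.61 FPKM and a log2 ratio of -0.73 (interval -1.27 to -0.02).

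ZNF383 stood at 0.466 and 2.23 FPKM, a log2 ratio of 1.14, on about 8 and 25 fragments (interval 0.33 to 2.89). Its transcript of 582 bases stood at 0.170 and 1.76 FPKM, on about 1 and 12 fragments. One of 2268 bases stood at 0.295 and 0.467 FPKM. ZNF17 stood at 0.251 and 1.66 FPKM, a log2 ratio of 1.09, on about 7 and 54 fragments (interval 1.69 to 4.21). Both passed the minimum in the si-v library alone. ZNF433 stood at 2.29 and 5.08 FPKM with a ratio of 0.89, on about 36 and 60 fragments. A transcript of 583 bases gave 2.95 FPKM of the second value, while one of 2280 bases stood at 0.841 and 0.648 FPKM. Taken by fragments per gene in place of summed FPKM, the log2 ratio was 0.51 for ZNF383 and 0.41 for ZNF433.

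ZNF544 and ZNF324B complete the 8 highest ratios among members that reached 2 FPKM. ZNF544 stood at 6.12 and 12.1 FPKM, a log2 ratio of 0.88, on about 158 and 308 fragments (interval 0.57 to 1.13). Of its 10 listed transcripts, 9 had a higher value in the si-v library. ZNF324B stood at 2.37 and 5.13 FPKM, a log2 ratio of 0.86 (interval 0.61 to 1.49), and both of its listed transcripts were higher.

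ZNF211 was the lowest. It stood at 3.35 FPKM in the control and 0.326 FPKM in the si-v library, a log2 ratio of -1.71, on about 93 and 10 fragments (interval -4.44 to -2.39). All 4 of its transcripts with a value in the control were lower in the si-v library, and 2 of them were listed at 0 there. ZNF551, the next member on the same strand, was lower as well, with 1.14 and 0.200 FPKM and a log2 ratio of -0.84 (interval -3.18 to -0.97). ZNF418 stood at 1.62 and 0.235 FPKM, a log2 ratio of -1.09, on about 32 and 9 fragments (interval -3.20 to -0.85). ZNF211, ZNF551 and ZNF418 all passed the minimum in the control alone, so their direction follows from the rule.

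ZNF439 and ZNF506 were among the more abundant members in the control. ZNF439 stood at 11.1 and 5.12 FPKM, a log2 ratio of -0.98, on about 309 and 154 fragments (interval -1.41 to -0.84), and both of its transcripts were lower. ZNF506 stood at 11.7 and 6.21 FPKM, a log2 ratio of -0.82 (interval -1.37 to -0.53). ZNF90, with a single listed transcript, stood at 4.06 and 1.76 FPKM, a log2 ratio of -0.87 (interval -1.74 to -0.71).

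ZNF221, ZNF584 and ZNF260 complete the 8 lowest ratios among members that reached 2 FPKM. ZNF221 stood at 3.21 and 1.69 FPKM with a ratio of -0.64. ZNF584 stood at 11.1 and 6.81 FPKM, also with a ratio of -0.64, and its transcript of 2187 bases went from 6.21 to 0.491 FPKM while one of 575 bases stood at 3.002 and 3.795 FPKM. By the most abundant transcript alone, that of 575 bases on about 19 and 26 fragments, ZNF584 was therefore higher, with a ratio of 0.26. The transcript of 2187 bases had nearly the same mean level and a ratio of -2.27, so this direction rests on a near tie. ZNF260 stood at 5.71 and 3.50 FPKM, a ratio of -0.58 (interval -1.05 to -0.55), and its control value came from 1 transcript of 5666 bases while the si-v library divided it between that and a transcript of 5055 bases.

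**Figure D2:**
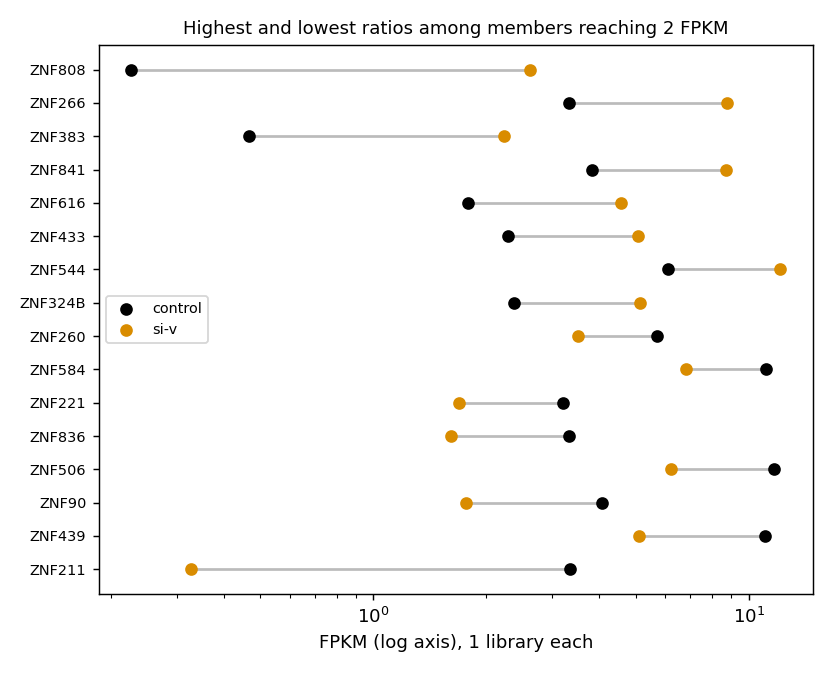
Level in FPKM, on a log axis, of the 8 members with the highest and the 8 with the lowest log2 ratio among those that reached 2 FPKM in a library, ordered by ratio; black points are the control and orange points the si-v library, 1 library each. ZNF808 and ZNF211 show the widest gaps, and ZNF506, ZNF584 and ZNF439 start from the highest control levels of the 8 lowest.

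The list of members with a known role held 24 symbols and was written with earlier results of these data known. Of these, 21 were members, ZNF268 lies on another chromosome and stood at 1.05 and 5.78 FPKM (log2 ratio 1.73), ZNF540 was not among the listed transcripts, and ZNF382 stayed under the minimum with 0.0672 and 0.225 FPKM. None of the 21 was past 1.5-fold, while 82.6% of all members and 81.3% of all genes lay within it.

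ZNF274, which brings TRIM28 and SETDB1 to the ZNF genes of this chromosome, stood at 7.68 FPKM in the control and 11.4 FPKM in the si-v library, a log2 ratio of 0.51 (interval 0.004 to 0.63). ZNF91, a repressor of SVA and LINE-1 retrotransposons, stood at 2.79 and 3.96 FPKM, a log2 ratio of 0.39 (interval 0.48 to 1.11). ZNF417 and ZNF587, which act on HERV-K retroviral elements, stood at 5.31 and 5.55 FPKM and at 6.08 and 7.37 FPKM. ZNF43 and ZNF85, of the same cluster as ZNF91, stood at 5.21 and 3.74 FPKM and at 3.87 and 5.57 FPKM. The interval of ZNF43 was -0.81 to -0.16, and that of ZNF85, on about 47 and 55 fragments, was -0.48 to 0.70 and included 0.

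ZNF473, a component of the U7 machinery that cuts histone pre-mRNA and not a classical repressor, stood at 4.14 and 6.27 FPKM, a log2 ratio of 0.50 (interval 0.19 to 0.70). ZNF175, reported to act on the HIV-1 promoter, stood at 10.5 and 6.85 FPKM, a log2 ratio of -0.55 (interval -0.78 to -0.44). ZNF224, a repressor of the aldolase A gene, stood at 7.87 and 7.21 FPKM. ZNF331, an imprinted gene, stood at 9.81 and 8.49 FPKM. ZNF146, which consists of zinc fingers with no KRAB domain, stood at 11.1 and 10.7 FPKM. The intervals of ZNF224, ZNF331 and ZNF146 all included 0.

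The remaining 10 members of that list ran from a log2 ratio of -0.32 in ZNF569 to 0.55 in ZNF528. ZNF569 stood at 5.13 and 3.92 FPKM. All of them lay within 1.5-fold. ZNF787 had a ratio of 0.48, ZNF765 of 0.37 and ZNF780A of 0.22. ZNF45 and ZNF444 gave -0.03 and -0.04, ZNF30 gave -0.05, ZNF226 gave -0.09 and ZNF649 gave -0.22. By the most abundant transcript alone, ZNF528 stood at -0.41 and ZNF45 at 1.18.

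Along the chromosome, annotated ZNF genes over 500 kb apart were put in separate clusters. This gave 21 clusters, of which 8 held 5 or more members and together 178 of the 195. Each cluster is named here by its first and last annotated ZNF gene, in order from the tip of the short arm. Of the genes named by cluster below, ZNF429, ZNF383, ZNF573, ZNF808, ZNF845, ZNF583 and ZNF17 passed the minimum in the si-v library alone. ZNF66, ZNF527 and ZNF211 passed it in the control alone. The direction of each of these, and so its place at an end of a range, follows from the rule.

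The cluster from ZNF414 to ZNF846 had 11 members, of which 9 were higher in the si-v library. For this count and those of the other clusters, the share of higher genes over all genes was 50.4%. Its median log2 ratio was 0.32, from -0.38 in ZNF414 to 1.17 in ZNF266. ZNF846 was also past 1.5-fold, with 3.57 and 6.23 FPKM, though its counting interval of -0.09 to 1.15 included 0.

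The cluster from ZNF653 to ZNF791 had 22 members and a median of 0.13, from -0.98 in ZNF439 to 0.89 in ZNF433. Here ZNF653 with 3.46 and 6.17 FPKM, ZNF563 with 2.03 and 4.41 FPKM and the pseudogene ZNF788P with 8.43 and 13.2 FPKM were past 1.5-fold as well. The cluster of 27 members from ZNF101 to ZNF254, which holds ZNF91, ZNF43 and ZNF85, had a median of -0.02, and 12 of them were higher. Its range was from -0.87 in ZNF90 to 0.65 in ZNF429, which stood at 0.831 and 1.87 FPKM. ZNF66 was lower, with 1.98 and 0.883 FPKM.

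Beyond the centromere, the 21 members from ZNF565 to ZNF573 had a median of 0.08, and the range ran from -0.68 in ZNF527 to 1.14 in ZNF383. ZNF527 stood at 1.17 and 0.356 FPKM. ZNF607, at 2.41 and 4.15 FPKM, and its neighbour ZNF573 were both past 1.5-fold higher. The 18 members from ZNF575 to ZNF180 had a median of -0.02, from -0.64 in ZNF221 to 0.74 in its neighbour ZNF155, which stood at 2.29 and 4.52 FPKM.

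The 33 members from ZNF175 to ZNF331 had a median of 0.04, from -0.73 in ZNF836 to 1.56 in ZNF808. ZNF845, with 26 fingers, was past 1.5-fold with 0.821 and 1.78 FPKM. The 12 members from ZNF628 to ZNF835 had a median of 0.36, and 10 of them were higher. Their range was from -0.23 in ZNF628 to 0.68 in ZNF583, which stood at 0.613 and 1.59 FPKM, and ZNF784 stood at 1.24 and 2.48 FPKM. Only 3 of these 12 had a KRAB-like stretch, and their median GC content was 65.4%, against 43.5% over all members. With the trend of the ratio with GC content and length removed, the median of this cluster was 0.15.

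The last cluster, from ZNF264 to ZNF446, had 34 members, of which 23 were higher, and a median of 0.10. It held both the lowest ratio of all members, -1.71 in ZNF211, and 1.09 in ZNF17. ZNF550 stood at 2.06 and 4.08 FPKM with a ratio of 0.73. The medians of these 8 clusters thus ran from -0.02 to 0.36, and each of the 8 held members on both sides of 0. At a minimum of 5 FPKM the cluster from ZNF565 to ZNF573 turned to -0.28, that from ZNF175 to ZNF331 to -0.15, and that from ZNF101 to ZNF254 went to -0.39. By the most abundant transcript the cluster from ZNF414 to ZNF846 had a median of 0.11.

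**Figure D3:**
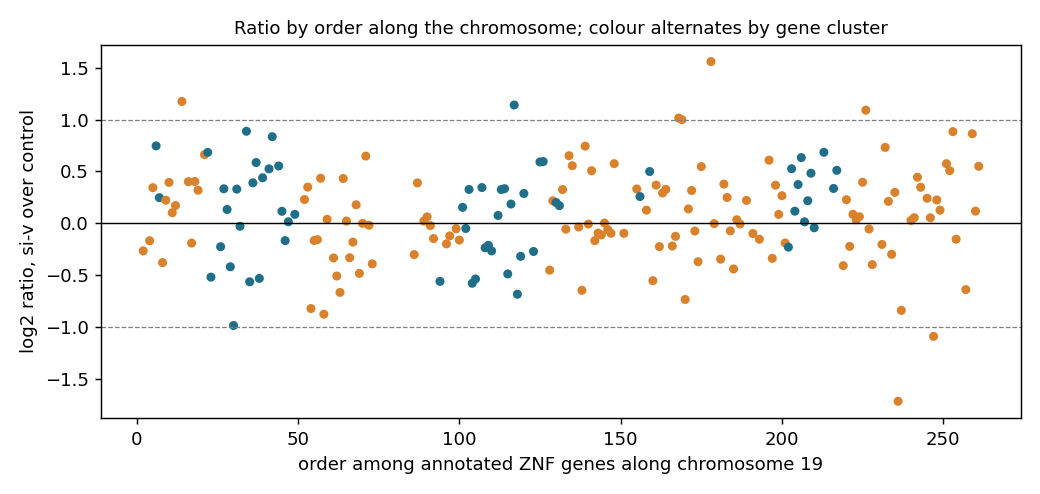
Log2 ratio of the si-v over the control library for each member (y) by its order among the annotated ZNF genes along chromosome 19 (x), with colour alternating between clusters and dashed lines at 2-fold. Higher and lower members are mixed within each of the 8 clusters with 5 or more members. The extremes, ZNF808 at 1.56 and ZNF211 at -1.71, lie in different clusters.

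Neighbours showed little common direction. Of 178 pairs of consecutive members within a cluster, 88 (49.4%) had ratios of the same sign. Both members were past 1.5-fold in 7 pairs. In 3 of these the direction was shared, namely ZNF841 with ZNF616, ZNF607 with ZNF573, and ZNF211 with ZNF551. In the other 4 it was opposite, namely ZNF383 with ZNF527, ZNF221 with ZNF155, ZNF616 with ZNF836, and ZNF584 with ZNF324B. These pairs are named because they passed 1.5-fold, after their values were seen. Of their genes, ZNF211, ZNF551 and ZNF527 passed the minimum in the control alone, and ZNF573 and ZNF383 in the si-v library alone. The directions of these genes therefore follow from the rule.

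By protein class, the 155 members with a KRAB-like stretch had a median log2 ratio of 0.04, and 85 of them (54.8%) were higher. The 39 without one had a median of 0.25, and 27 (69.2%) were higher, beside 50.4% of all genes. The classes also differed in base composition, with a median GC content of 42.9% and 54.4%. With the trend with GC content and length removed, the medians were 0.14 and 0.11, so that their order turned. By the number of fingers, the medians were 0.02 for up to 5, 0.17 for 6 to 10, 0.05 for 11 to 15 and 0.02 for 16 or more.

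Base composition moved with the ratio across all genes. In the tertile of genes with the lowest GC content the median log2 ratio was -0.16 over 3682 genes, and in the tertile with the highest it was 0.19. In the low tertile the 117 members had a median of 0.02 and the 76 ZNF genes of other chromosomes a median of -0.13. In the middle tertile the 54 members had a median of 0.14, against 0.00 over all genes. ZNF genes of other chromosomes and other genes of chromosome 19 both had 0.15 there. In the high tertile the 24 members had a median of 0.21, ZNF genes of other chromosomes 0.29 and other genes of chromosome 19 0.26. Without regard to GC content, ZNF genes of other chromosomes had the same median as the members, 0.09. The 614 other genes of chromosome 19 had a median of 0.25, at a median GC content of 61.1%. With the trend removed, the medians were 0.14 for members, 0.11 for ZNF genes of other chromosomes, 0.05 for other genes of chromosome 19 and 0.01 for all genes. The part of base composition in these ratios was not tested beyond this.

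**Figure D4:**
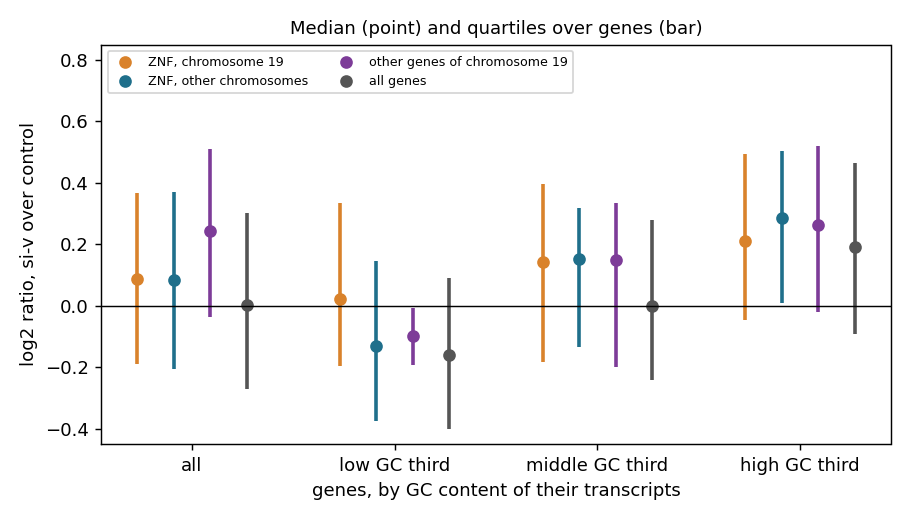
Median log2 ratio of the si-v over the control library (points) with quartiles over genes (bars) for members, ZNF genes of other chromosomes, other genes of chromosome 19 and all genes, for all GC contents and by tertile of GC content. Over all genes the median goes from -0.16 in the low to 0.19 in the high tertile, and the members go from 0.02 to 0.21; the low tertile holds only 10 other genes of chromosome 19.

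Within genes, the leading transcript often differed between the libraries. Of 160 members with 2 or more listed transcripts, 59 (36.9%) had another leading transcript in the si-v library. Over all genes the share was 26.4%, and over genes in the middle range of member levels it was 33.8%. Among ZNF genes of other chromosomes it was 51 of 157 (32.5%). With at least 50 fragments in both libraries, 35 of 116 members (30.2%) had another leading transcript, against 24.3% of all genes. With at least 200 it was 9 of 31 members (29.03%), against 21.8%. All genes had a median of about 303 control fragments and the members 92.9, so these shares may not be at like depth. Transcript values are estimates by the authors' software from overlapping models, and how reads were divided cannot be checked from the table.

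ZNF302 moved most among members with at least 50 fragments in both libraries. It stood at 9.67 FPKM in the control and 8.31 FPKM in the si-v library. A transcript of 2635 bases held 75.4% of the control level and 1.07% of the si-v level, and one of 2955 bases held 4.74% and 54.9%. The gene's fragments, about 278 and 272, were nearly equal.

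ZNF331 showed the same pattern. Its transcript of 1890 bases stood at 7.21 FPKM in the control and was listed at 0 in the si-v library, while one of 1985 bases stood at 0.0616 and 5.43 FPKM. ZNF561 had 97.5% of its control level in a transcript of 4693 bases, against 30.2% in the si-v library, where one of 2017 bases held 67.6%. ZNF304 had 90.6% and 26.2% in a transcript of 3331 bases. ZNF180 had 91.5% and 31.3% in one of 3048 bases.

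For ZNF587 the choice of scale decided the direction. A transcript of 5731 bases held 66.8% of its control level and 9.17% of its si-v level, and one of 1974 bases held 13.2% and 79.7%. In FPKM ZNF587 was higher in the si-v library, with a log2 ratio of 0.24, whereas its fragments were about 364 and 251 (interval -0.89 to -0.42). ZNF585A and ZNF320 also pointed opposite ways on both scales. ZNF585A stood at 3.65 and 2.32 FPKM with about 77 and 137 fragments, and ZNF320 at 1.38 and 1.44 FPKM with about 63 and 18. The directions of these 3 genes therefore depend on the scale.

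**Figure D5:**
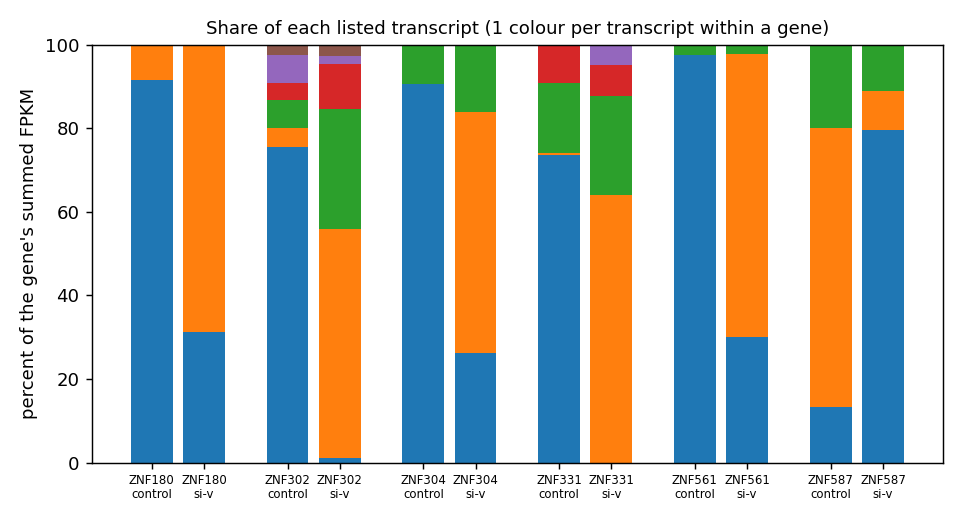
Share of each listed transcript in the summed FPKM of the gene, in percent, for the 6 members with the largest shift between transcripts and at least 50 fragments in both libraries, with 1 bar per library and 1 colour per transcript within a gene. In ZNF302 and ZNF331 the transcript that led in the control held 1.07% and 0% of the si-v level.

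Near copies at separate loci are given as sums, since reads may have been split between them. ZNF417 and ZNF587 together stood at 11.4 FPKM in the control and 12.9 FPKM in the si-v library, a log2 ratio of 0.17, but their fragments together were about 503 and 399, so the direction of the sum turned. ZNF585A and ZNF585B together stood at 7.38 and 6.71 FPKM, a ratio of -0.12, while their fragments together were about 237 and 389, in the opposite direction. ZNF324 and ZNF324B together stood at 5.28 and 8.37 FPKM, a ratio of 0.58, with about 145 and 271 fragments. ZNF443 and ZNF799, whose shared runs made up 32.0% of the runs of 1 of them, together stood at 2.75 and 3.87 FPKM. The 46 members with 10% or more shared runs had a median of 0.12, against 0.08 for the other 149.

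The partners through which KRAB zinc finger proteins act were measured from a list of 21 genes, and all 21 reached 1 FPKM. Their median log2 ratio was -0.15, with 9 (42.9%) higher, beside 50.4% of all genes. None was 2-fold or more higher, against a background of 2.37%, and 2 were 2-fold or more lower, against 2.49%. TRIM28, the corepressor itself, stood at 45.7 FPKM in the control and 58.4 FPKM in the si-v library, a ratio of 0.35. SETDB1 stood at 9.17 and 9.77 FPKM, a ratio of 0.08.

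The 2 lower genes were CBX5, which codes for HP1 alpha, with 28.2 and 13.0 FPKM, and DNMT3A, a de novo DNA methyltransferase, with 2.51 and 0.518 FPKM. ATF7IP, the partner that stabilises SETDB1, stood at 17.3 and 9.34 FPKM, a ratio of -0.82. DNMT1, the maintenance DNA methyltransferase, stood at 88.9 and 142 FPKM, a ratio of 0.67. The other HP1 genes CBX1 and CBX3 had ratios of 0.06 and -0.47. By the most abundant transcript alone the ratio was -0.36 for CBX5, -0.72 for DNMT3A, 0.09 for DNMT1 and -3.35 for ATF7IP, so the sizes of these 4 depend on how transcripts are combined. Among genes of the HUSH complex, which silences transposable elements with SETDB1, TASOR (listed as FAM208A) had 0.19, MPHOSPH8 -0.15 and PPHLN1 -0.34.

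Promoters of the family were searched for short sequence motifs. An entry in the RefSeq promoter table (GRCh38.p14, 250 bases before to 50 after the start) was found for 173 members, and 14 motifs were searched on both strands. These were CCGGAAGT of the ETS type, with its shorter core CGGAAG inside it, the GC box GGGCGG, the TATA box TATAAA, the ZNF143-type ACTACAA, the YY1-type GCCATNTTG and the CCATTTTG that can overlap with it, the cyclic AMP element TGACGTCA, the E box CACGTG, and the further strings GGTCACATG and also GTTTCCT. The other 3 were longer, 2 of them extensions of ACTACAA and the third a palindrome around CGCG, and were held by at most 3 member promoters each. The motif CCGGAAGT was singled out after the counts were seen. It was held by 38 of 173 member promoters (22.0%), by 16.7% of ZNF genes of other chromosomes, by 8.97% of other genes on chromosome 19 and by 10.9% of all genes reaching the minimum. TATAAA was held by 3.47% of members and 7.83% of genes reaching the minimum.

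Members with CCGGAAGT had a median log2 ratio of 0.20, and those without it 0.04. Other motifs split the members in both directions. The medians were 0.20 with and 0.09 without TGACGTCA, and -0.05 with and 0.12 without GTTTCCT. No such split is given for all genes, and a link between a motif and the ratio was not tested. Of the 16 highest and lowest members, 13 had a promoter entry, and 1, ZNF324B, held CCGGAAGT. Its promoter is shown since it is the one among them with a match. It lies at chr19:58451372-58451671 on the plus strand and holds 29 CpG, against a median of 20 in members, and the capitals mark the motif, here on the opposite strand.
ZNF324B promoter: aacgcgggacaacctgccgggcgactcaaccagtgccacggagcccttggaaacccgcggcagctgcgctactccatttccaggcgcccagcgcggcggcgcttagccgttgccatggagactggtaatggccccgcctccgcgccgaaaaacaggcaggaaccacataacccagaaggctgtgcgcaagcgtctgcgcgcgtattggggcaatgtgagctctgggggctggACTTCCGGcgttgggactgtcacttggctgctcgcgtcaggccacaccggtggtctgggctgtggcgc

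The defining markers of the labelled line were present in both libraries. VIM, CD44, AXL, CAV1, MSN and FOSL1, known markers of mesenchymal-like breast cancer lines, ranged from 83.7 to 739 FPKM. ESR1 was listed at 0, PGR was not among the listed transcripts, and CDH1 and KRT5 stayed under 1 FPKM, while GATA3 stood at 2.65 and 2.18 FPKM. Of markers of other cell types, CD68 stood at 47.8 and 55.0 FPKM, COL1A1 at 0.482 and 1.14 FPKM and PDGFRB at 1.01 and 0.641 FPKM, and PTPRC, PECAM1, VWF and COL3A1 were likewise not listed. Any part of other cells in the ratios above was not tested. In bulk RNA, fewer cells that express a gene and less RNA per cell cannot be told apart.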

How the data were processed

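RNA of 2 MDA-MB-231 cultures was sequenced, 1 library per group. The submitters' processing notes name cutadapt, HISAT2 2.0.5, StringTie and hg19. The strand setting and the annotation were not given in the sources used here. Reads of overlapping genes on opposite strands can therefore not be told apart. The values deposited by the authors, 1 per transcript for 39605 transcripts, were read as FPKM, made by StringTie as far as those notes go, since the header names no unit.

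Transcripts were matched without version to GENCODE release 29 (GRCh38), used for symbols, order, lengths, GC content and sequences; 99.5% matched. FPKM values were summed per gene with Python 3.11.15 and pandas 2.3.3, and 1 FPKM was added for ratios. A fragment was worth 91.2 (control) and 84.1 (si-v) in FPKM times bases, read from the peak of low values in genes with 1 transcript. Fragment numbers are approximate, and intervals cover counting error only. The log2 ratio and its 2-fold threshold were tested on simulated gene counts with known folds, and the other steps were not.

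Members and lists were chosen with earlier results of these data known. Named genes are the 8 highest and 8 lowest ratios among members reaching 2 FPKM, the 8 highest levels, the highest and lowest ratio of each cluster with 5 or more members, the known-role list and the 3 genes on either side of the minimum. Others were named after their values were seen. No protein table was used, so KRAB-like stretches and fingers were counted in translated GENCODE coding sequences, as pattern matches. Alternatives were other pseudocounts, scalings, filters and gene summaries.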

Additional observations from a re-analysis of the deposited data

How the results depend on the processing

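The median log2 ratio of the members stayed above 0 in all 14 alternatives, from 0.04 with no filter to 0.14 with the trend with GC content and length removed. The counts past 2-fold moved more. Against 5 members higher and 2 lower, a pseudocount of 0.1 gave 14 and 9, a pseudocount of 0.5 gave 8 and 5, the most abundant transcript gave 10 and 14, and a threshold of 1.5-fold gave 23 and 11. A minimum of 5 FPKM, which left 66 members, gave 2 and 0, a minimum in both libraries gave 2 and 0, members with 1 listed transcript gave 0 and 0, and a mean of at least 1 FPKM gave 1 lower. With a smaller pseudocount low genes are shrunk less, and the filters test fewer genes; the cause of the other shifts was not tested. Of all genes 2.37% were higher and 2.49% lower, and 4.40% and 4.28% with a pseudocount of 0.1, 3.20% and 3.21% with 0.5, and 6.18% and 6.39% by the most abundant transcript, beside 7.18% and 4.62%, 4.10% and 2.56%, and 5.13% and 7.18% of members.

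Of 468 values of the 52 named genes, 441 moved by less than the counting error, 16 moved further with the same sign and 11 moved further and changed sign. Another 11 changed sign within the counting error, so 22 did in all. Beyond the counting error, by the most abundant transcript, these were ZNF121 (0.19), ZNF45 (1.18), ZNF473 (-0.18), ZNF528 (-0.41), ZNF580 (-0.24) and ZNF584 (0.26). By fragments per gene they were ZNF121 (0.10) and ZNF587 (-0.59). With the trend removed they were ZNF121 (0.0027), ZNF358 (-0.042) and ZNF580 (-0.29). The cluster from ZNF565 to ZNF573 had a median of -0.28 at a minimum of 5 FPKM, where that from ZNF101 to ZNF254 went to -0.39 and that from ZNF264 to ZNF446 to 0.32, and members with 1 listed transcript gave 0.26 for that from ZNF175 to ZNF331. Of 111 cluster values 13 changed sign. The cause was not tested.

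No paired analysis was possible because each group has 1 library, and for the same reason leaving out a replicate was not possible. The counting intervals of 99 members included 0, a count with no share over all genes beside it. These members had a median of 90.5 and 94.3 fragments, close to the 92.9 and 108 of all members.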
